A study of Mus musculus with 4 samples.

Results

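The genes described here are 42 genes of mitosis and of the G2/M step, the passage from the end of DNA replication into cell division. They were chosen by name, as regulators of entry into mitosis and parts of the kinetochore, the spindle and the cytokinesis machinery, and all 42 were found among the 21878 genes of the count table. The libraries came from bone-marrow-derived macrophages (BMDMs) of C57BL/6 mice, aged 8 weeks by the sample labels and 8 to 10 weeks by the study's methods. Marrow cells matured over 6 days in M-CSF at 50 ng/ml, a cytokine that makes precursors divide and become macrophages. They were then kept beside MC38, a line of mouse colon carcinoma cells, which grew apart from them in inserts with pores of 0.4 µm. The coculture lasted 48 h by the labels and 24 h by the study's text. There were 2 libraries labelled WT, from wildtype mice, and 2 labelled anti-Act1, from mice with a macrophage-specific knockdown of Act1, the adaptor protein of IL-17 receptor signalling. How the knockdown is driven is not given in the sources used here, and both groups carried the same coculture, so no macrophages without tumor cells were compared. The study examined what part lowered Act1 in macrophages has in the step from adenoma to adenocarcinoma in colorectal cancer. Here the question was whether the genes of cell division differed between both genotypes.

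A cell that is about to divide copies its DNA, passes through G2 and enters mitosis when cyclin B switches on the kinase Cdk1. Kinetochores then tie the chromosomes to the spindle, a checkpoint waits until every chromosome is attached, the anaphase-promoting complex (APC/C) removes cyclin B and securin, and cytokinesis parts the daughters. The messages of this machinery rise together late in the cell cycle, because their promoters carry a short element named CHR, often with CCAAT boxes, that the DREAM complex uses to keep them silent in resting cells and that B-MYB and FoxM1 use to switch them on. Macrophages grown with M-CSF divide while they mature and stop as they differentiate, so that such genes are a sign of how many cells are still cycling.

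The labels were checked first. Traf3ip2, the gene of Act1, was at 6.98 and 7.54 CPM (counts per 1000000, scaled to library totals that TMM had adjusted) under the WT label and at 9.63 and 7.84 CPM under the anti-Act1 label. It was thus not lower where the label says knockdown, with a log2 change, the fitted log2 ratio of anti-Act1 over WT, of 0.27 ± 0.12 (SE, edgeR adjusted p = 0.117). This value was 0.11 without replicate 1 labelled anti-Act1 (edgeR adjusted p = 0.723) and 0.41, called higher, without replicate 2 (edgeR adjusted p = 0.0343). Every direction below is that of the libraries labelled anti-Act1 relative to those labelled WT. The Y-linked genes Ddx3y, Eif2s3y, Uty and Kdm5d summed to 228 and 246 CPM under the WT label and to 0.0162 and 0 CPM under the anti-Act1 label. The sex of the animals and the genotype label can therefore not be told apart in any result. Defining markers of macrophages were abundant in all 4 libraries, with a sum over 10 genes of 26310 and 25350 CPM under the WT label and of 26030 and 26880 CPM under the anti-Act1 label, most of it Lyz2.

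The mitosis genes were rare messages in these cells. Total counts were 64199075 and 75062945 under the WT label and 61926229 and 55435063 under the anti-Act1 label, and the WT label thus had the deeper pair. The 42 genes together held 7352 and 8543 counts in the former, and 5844 and 4942 counts in the latter, which is 0.0115% and 0.0114% of all counts under the WT label and 0.00944% and 0.00891% under the anti-Act1 label. Summed CPM were 114 and 113 under the WT label and 94.6 and 90.5 under the anti-Act1 label, with no overlap between the groups. Cenpa alone held 24.7% to 26.2% of these sums, and without it the sums were 85.4 and 84.8 CPM against 69.9 and 66.8 CPM. Per length of gene, on the scale of FPKM (fragments scaled to gene length and library size), the median level of the members tested was 0.440 FPKM, whereas that of all genes tested was 8.50 FPKM. Of the 42 genes, 11 had a mean of at least 1 FPKM, and 41 lay under the median of all genes. A gene at 0 counts could still have up to 3, or 0.0395 to 0.0549 CPM by library, for counting error only. In bulk RNA, fewer dividing cells and less of a message in each dividing cell cannot be told apart.

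**Figure D1:**
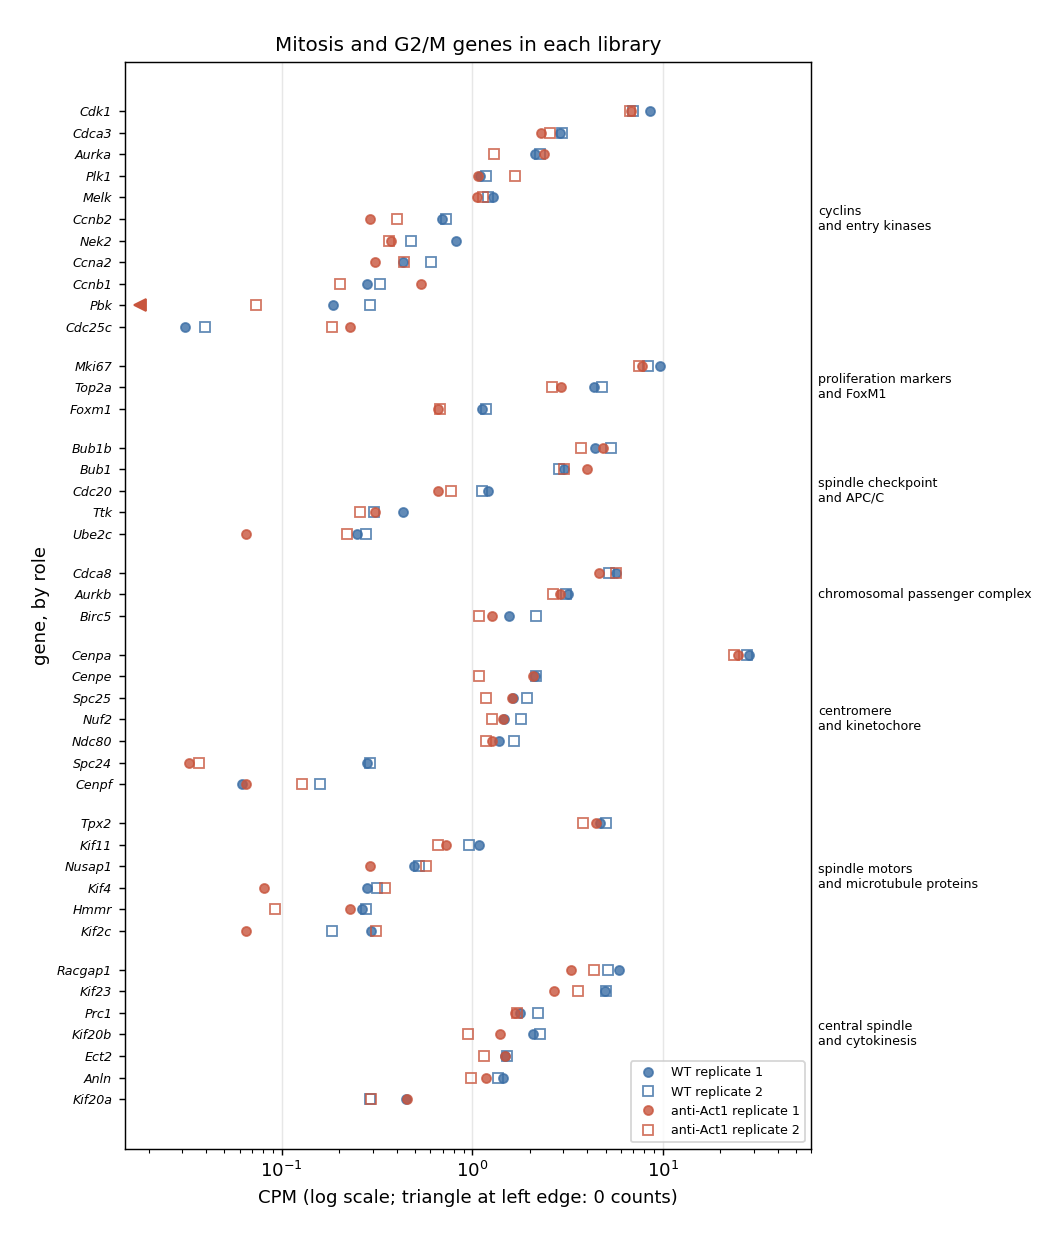
CPM of each of the 42 mitosis and G2/M genes in the 4 libraries, on a log axis, grouped by role. Filled circles stand for replicate 1 and open squares for replicate 2 of each label, and the triangle at the left edge is Pbk, at 0 counts in replicate 1 labelled anti-Act1. Most genes lie between 0.1 and 10 CPM, Cenpa lies above 20 CPM, and for 27 of the 41 genes tested both points labelled anti-Act1 lie to the left of both points labelled WT.

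Most of these genes were fitted lower in the libraries labelled anti-Act1, but few of them passed the test one by one. Of the 42 genes, 41 had enough counts for edgeR's default filter and 1, Cenpf, had not (4 and 12 counts under the WT label, 4 and 7 under the anti-Act1 label). In edgeR's quasi-likelihood test with Benjamini-Hochberg adjustment over 12494 genes, 7 members fell (Top2a, Kif23, Kif20b, Racgap1, Cenpa, Spc24 and Pbk) and 1 rose (Cdc25c). The share called in either direction, 19.5% of the members tested, was close to the 20.7% of all genes tested, and the share called lower was 17.1%, against a background of 9.76% lower and 10.9% higher. The fitted log2 change was below 0 for 36 of the 41 members (87.8%), as for 51.0% of all genes tested and 49.3% of those with a mean under 10 CPM, and its median was −0.35 over the members and −0.0046 over all genes tested. For 27 members (65.9%) both libraries labelled anti-Act1 lay below both labelled WT, which held for 28.7% of all genes tested. The opposite order held for 2 members, Cdc25c and Bub1, with a background of 28.4%, and the groups overlapped for 12 members.

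Low counts shaped which members could be called. Spc24, Pbk and Cdc25c reached the level of the filter, 0.159 CPM, in both libraries of 1 label only, so that they could enter the test only with a difference, and their calls are descriptions. Of the other 38 members tested, 5 were called lower and 0 higher, 34 were fitted below 0, and their median was −0.33. By level, the 23 members with a mean of 1 to 10 CPM had 4 called lower and 21 fitted below 0, with a median of −0.24. Of all genes tested at that level, 6.92% were called lower. The 17 members tested below 1 CPM had 2 called lower and 1 higher, where 7.62% of all such genes were called in either direction, and a median standard error of 0.52, so that a fold change of the size seen in the better measured members was not detectable there. In each library 74.5% to 76.8% of the counts from 2 to 11 were even numbers, where single reads would give about as many odd ones, so that intervals from counts this low may be too narrow. Top2a was the 1 member of the 8 that stayed past the threshold whichever library was left out. With a library left out, 3 to 6 members were called and the median stayed between −0.37 and −0.26. The study's methods call the libraries of a label biological replicates, and their counts differed by far more than sampling noise, with a chi-square per gene of 10.8 between those labelled WT and 7.45 between those labelled anti-Act1. Whether they came from separate animals or separate cultures is not given in the sources used here, and the p-values measure the spread between these libraries only.

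**Figure D2:**
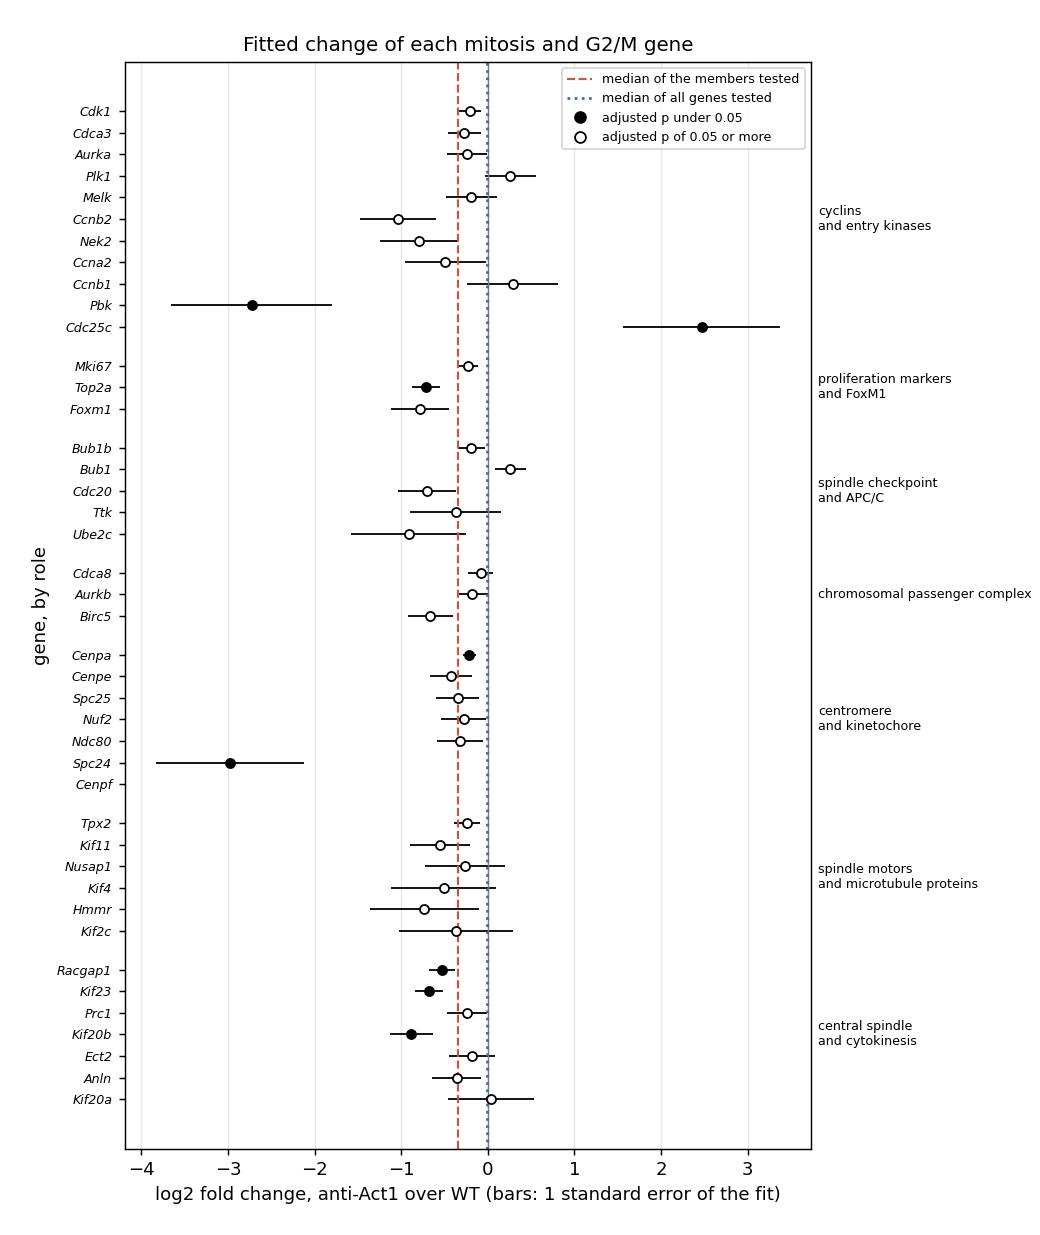
Fitted log2 change, anti-Act1 label over WT label, for each of the 41 members tested, with bars of 1 standard error. Filled points have an edgeR adjusted p under 0.05, open points do not, and Cenpf has no point because it was not tested. The points gather left of 0 around the dashed median of −0.35, the dotted median of all genes tested lies at −0.0046, and Spc24, Pbk and Cdc25c stand far out with wide bars.

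The promoters of the fallen members are shown because the element that times G2/M messages can be read in them. A promoter was at hand for 34 of the 42 members, in RefSeq's GRCm38.p6 models, of which 125 bases are printed here for the 5 called members that have one and for Cdk1, from 100 bases before the annotated start to 25 after it. Each is read 5′ to 3′ on the strand of the gene. Capitals mark the CHR letters TTTGAA or TTCGAA and the CCAAT letters, each on either strand, so that TTCAAA and ATTGG are the same elements read from the other strand.
Top2a, chr11:99024165-99024289, minus strand: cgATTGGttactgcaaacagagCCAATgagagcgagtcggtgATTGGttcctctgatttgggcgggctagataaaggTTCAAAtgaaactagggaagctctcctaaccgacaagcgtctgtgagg
Kif23, chr9:61946775-61946899, minus strand: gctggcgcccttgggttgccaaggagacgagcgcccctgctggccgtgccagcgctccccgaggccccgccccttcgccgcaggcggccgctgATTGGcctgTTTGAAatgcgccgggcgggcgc
Racgap1, chr15:99651632-99651756, minus strand: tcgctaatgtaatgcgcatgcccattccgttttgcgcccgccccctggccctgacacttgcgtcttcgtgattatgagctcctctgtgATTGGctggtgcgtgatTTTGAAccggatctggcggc
Kif20b, chr19:34922258-34922382, plus strand: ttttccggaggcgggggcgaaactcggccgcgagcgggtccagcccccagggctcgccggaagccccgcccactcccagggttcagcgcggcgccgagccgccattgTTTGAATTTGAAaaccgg
Cenpa, chr5:30666786-30666910, plus strand: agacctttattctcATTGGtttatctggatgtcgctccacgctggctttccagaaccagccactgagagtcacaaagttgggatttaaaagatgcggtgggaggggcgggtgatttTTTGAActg
Cdk1, chr10:69352888-69353012, minus strand: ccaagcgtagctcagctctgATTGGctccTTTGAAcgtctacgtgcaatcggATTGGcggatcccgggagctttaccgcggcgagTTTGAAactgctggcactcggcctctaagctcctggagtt

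All 6 windows hold CHR letters, 1 match in Top2a, Kif23, Racgap1 and Cenpa and 2 in Kif20b and Cdk1. In Kif20b both matches stand end to end, and its window holds no CCAAT letters, whereas Top2a has 3 CCAAT matches, Cdk1 has 2, and Kif23, Racgap1 and Cenpa have 1 each. Over 300 bases, from 250 before to 50 after the start, CHR letters were found in 29 of the 36 promoters of the 34 members (80.6%), against 19.2% of 32851 promoters of all genes. A match within 50 bases of the start was found in 75% of the members' promoters and in 5.51% of all. CCAAT letters were found in 77.8% against 37.4%, and both elements in 69.4% against 7.52%. The E2F letters searched (TTTGGCGC, TTTCCCGC, TTTGCCGC or TTTCGCGC, either strand), the element of genes that rise earlier, at the start of DNA replication, were found in 2.78% of the members' promoters and 2.26% of all. Other mitosis genes, 60 with a promoter, came near the members in CHR letters (67.2%, and 53.7% within 50 bases of the start) and in both elements (52.2%), and held E2F letters in 13.4%. Promoters of 50 genes of DNA replication held CHR letters in 20.3% and E2F letters in 32.2%. Among the members, all 5 of the promoters of genes called lower and 77.4% of the other 31 held CHR letters. The matches were letters only, and no binding was measured.

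**Figure D3:**
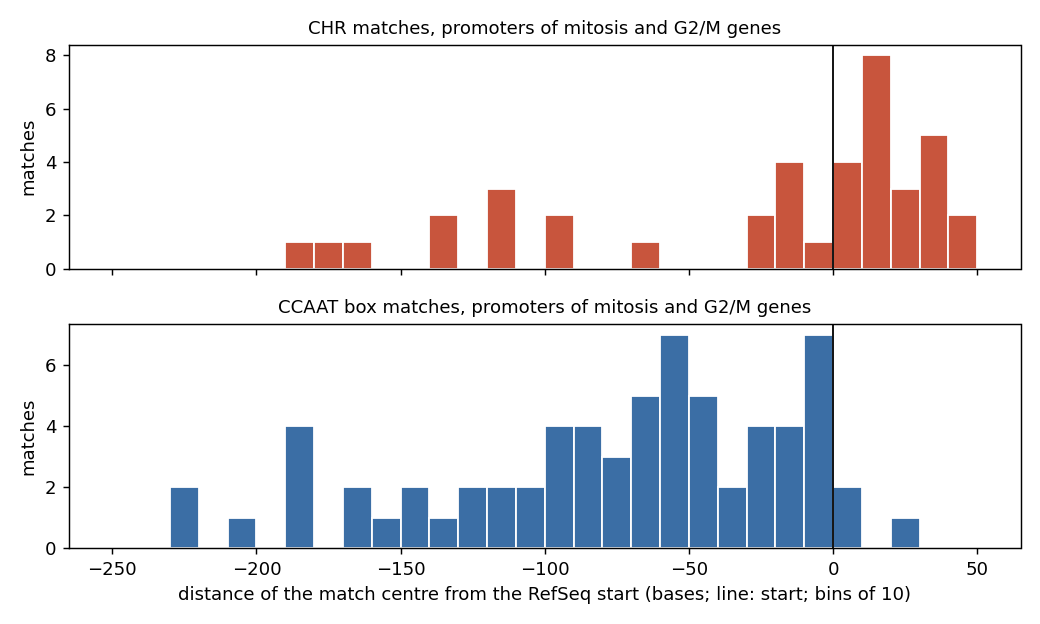
Positions of CHR matches (top) and CCAAT matches (bottom) in the 36 promoters of mitosis and G2/M genes, as the distance of the match centre from the RefSeq start in bases, counted in bins of 10. The 40 CHR matches gather around the start, with 29 of them within 50 bases of it, and 64 of the 67 CCAAT matches lie before it. Of the CHR matches, 1 shared a base with a CCAAT match.

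Among the kinases and cyclins of mitotic entry, 1 of 11 genes was called lower and 1 higher, a share of 18.2% against 20.7% of all genes tested, and 8 were fitted below 0. Both calls, Pbk and Cdc25c, are of genes that could enter the test only through the label where they were high. Cdk1, the kinase that drives entry into mitosis, was at 8.61 and 6.97 CPM under the WT label and at 6.77 and 6.68 CPM under the anti-Act1 label. The groups did not overlap, but both libraries labelled WT lay further from each other than the nearest libraries of both groups, and the log2 change of −0.21 ± 0.13 (SE) did not pass the test (edgeR adjusted p = 0.272). Cyclin B, the partner of Cdk1, is encoded by Ccnb1 and Ccnb2, and neither passed edgeR's test. Ccnb1 was at 0.279 and 0.329 CPM under the WT label and at 0.534 and 0.202 CPM under the anti-Act1 label, so that the groups overlapped and the highest and the lowest value were both labelled anti-Act1. Ccnb2 was at 0.697 and 0.725 CPM under the WT label and at 0.292 and 0.403 CPM under the anti-Act1 label, without overlap, with a log2 change of −1.04 ± 0.44 (SE, edgeR adjusted p = 0.0879). It was called with a minimum of 10 counts in every library (edgeR adjusted p = 0.0481) and by limma on unfiltered FPKM (adjusted p = 0.0284). Ccna2, the cyclin of S phase and G2, was at 0.433 and 0.606 CPM under the WT label and at 0.308 and 0.440 CPM under the anti-Act1 label, and its groups overlapped.

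Plk1 and Aurka, kinases that ripen the centrosomes and build the spindle, also overlapped between the groups. Plk1 was at 1.10 and 1.17 CPM under the WT label and at 1.07 and 1.67 CPM under the anti-Act1 label. Aurka was at 2.12 and 2.25 CPM in the former and at 2.38 and 1.30 CPM in the latter, where replicate 2 was the lowest of all. Cdc25c, the phosphatase that activates Cdk1, was the 1 member called higher, from very few reads. It had 2 and 3 counts under the WT label and 14 and 10 counts under the anti-Act1 label, a ratio of 5.80 with a 95% counting interval of 2.17 to 19.5 (exact binomial). Its call (log2 change 2.47 ± 0.90, edgeR adjusted p = 0.0445) was lost whichever library was left out, with edgeR adjusted p values of 0.175 to 0.311, and 12.7% of its exon bases are shared with a gene on the opposite strand. Pbk, a kinase of mitotic cells, had 12 and 22 counts under the WT label and 0 and 4 counts under the anti-Act1 label. The ratio was 0.142, with a 95% counting interval of 0.0366 to 0.398, and its call (edgeR adjusted p = 0.0283) was lost without replicate 1 labelled anti-Act1, the library at 0 (edgeR adjusted p = 0.383), and without replicate 2 labelled WT (edgeR adjusted p = 0.245). The remaining genes of this role, Nek2, Melk and Cdca3, were lower without overlap and missed the threshold, with log2 changes of −0.79, −0.19 and −0.27.

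Among the general markers of proliferation, Top2a fell and the other 2 did not pass the test. Of all genes tested, 9.76% were called lower. Top2a, the topoisomerase that unlinks sister chromosomes and is made from late S phase to mitosis, was at 4.33 and 4.77 CPM under the WT label and at 2.93 and 2.62 CPM under the anti-Act1 label. Both libraries labelled anti-Act1 were well below both labelled WT, by more than the spread within either label, and the log2 change was −0.71 ± 0.17 (SE, edgeR adjusted p = 0.000973). In all 12 alternatives that gave Top2a a value it was called lower, with log2 changes of −0.80 to −0.30. Mki67, the gene of the Ki-67 protein that coats mitotic chromosomes, was at 9.66 and 8.33 CPM under the WT label and at 7.81 and 7.51 CPM under the anti-Act1 label. The groups did not overlap, yet the gap between their nearest libraries was smaller than that between both libraries labelled WT, and the log2 change of −0.23 ± 0.12 did not pass the test (edgeR adjusted p = 0.175). Foxm1, the transcription factor that switches on many G2/M genes, was at 1.13 and 1.17 CPM under the WT label and at 0.664 and 0.678 CPM under the anti-Act1 label. Its replicates were close together and its groups well apart, but with 37 to 89 counts in a library the log2 change of −0.78 ± 0.34 missed the threshold (edgeR adjusted p = 0.0974). By limma on unfiltered FPKM it was called (adjusted p = 0.0368).

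The members that belong to the spindle checkpoint and the APC/C did not pass edgeR's test. Of these 5 members, 0 were called by edgeR, which called 20.7% of all genes tested, and 0 by DESeq2. Of the 14 APC/C genes outside the members, given further below, 3 were called. Cdc20 was the 1 member with an unadjusted p under 0.05 and the 1 called by limma on unfiltered FPKM. Bub1b (BubR1), which holds back the APC/C until all chromosomes are attached, was at 4.41 and 5.36 CPM under the WT label and at 4.87 and 3.70 CPM under the anti-Act1 label, with overlap. Its kinase partner Bub1 was at 3.02 and 2.86 CPM in the former and at 4 and 3.02 CPM in the latter, where only replicate 1 stood clearly above the rest. Bub1 and Bub1b thus lay on opposite sides of 0, with log2 changes of 0.26 ± 0.18 and −0.19 ± 0.16 (SE). Cdc20, the activator of the APC/C that the checkpoint restrains, was at 1.21 and 1.12 CPM under the WT label and at 0.664 and 0.769 CPM under the anti-Act1 label. Here the groups were apart, with a log2 change of −0.70 ± 0.33 (edgeR adjusted p = 0.138). Ube2c, the ubiquitin-conjugating enzyme of the APC/C, had 16 and 21 counts under the WT label and 4 and 12 under the anti-Act1 label, with 22.8% of its exon bases shared with Tnnc2 on the opposite strand.

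The chromosomal passenger complex corrects faulty attachments and stays behind for cytokinesis. Of its 3 genes among the members, 0 passed the threshold by edgeR, which called 20.7% of all genes tested, 0 by DESeq2 and 0 by limma. An unadjusted p under 0.05 was found for 1 of these 3 members of the complex. Aurkb, its kinase, was at 3.19 and 3.08 CPM under the WT label and at 2.88 and 2.66 CPM under the anti-Act1 label. These values were ordered without overlap but close together, with a log2 change of −0.18 ± 0.18 (SE, edgeR adjusted p = 0.559). Birc5 (survivin), which places the complex on the centromere, was at 1.55 and 2.16 CPM in the former and at 1.26 and 1.08 CPM in the latter. Its log2 change was −0.66 ± 0.26 (edgeR adjusted p = 0.0632). It came past the threshold without the filter on low counts and with counts divided by 2 (edgeR adjusted p = 0.0381 and 0.0484). The log2 change was −0.88 without replicate 1 labelled WT, the lower of that pair, and −0.40 without replicate 2 labelled WT. Cdca8 (borealin) was at 5.65 and 5.22 CPM under the WT label and at 4.63 and 5.64 CPM under the anti-Act1 label, with overlap and a log2 change of −0.08 ± 0.14. Incenp, a further subunit of the complex, is not among the members and was called lower (log2 change −0.18 ± 0.06, edgeR adjusted p = 0.0393). It was at 40.2 and 39.5 CPM under the WT label and at 34.7 and 35.6 CPM under the anti-Act1 label. DESeq2 did not call it (adjusted p = 0.0976).

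At the centromere and kinetochore all 6 members tested lay lower without overlap, as did 28.7% of all genes tested, and 2 of them were called lower, against a background of 9.76%. One of these, Spc24, could enter the test only through the label where it was high. Cenpa, the histone H3 variant that marks the centromere, was by far the most abundant member, at 28.4 and 27.8 CPM under the WT label and at 24.7 and 23.7 CPM under the anti-Act1 label. The difference was small but larger than the spread within either label, with a log2 change of −0.21 ± 0.07 (SE, edgeR adjusted p = 0.0274). It missed the threshold whichever library was left out, with edgeR adjusted p values of 0.0525 to 0.231 and log2 changes of −0.24 to −0.18. Spc24, 1 of the 4 subunits of the Ndc80 complex that grips the spindle microtubules, had 18 and 22 counts under the WT label and 2 and 2 counts under the anti-Act1 label. The ratio was 0.121, with a 95% counting interval of 0.0314 to 0.334 (edgeR adjusted p = 0.00823), and the call was lost without replicate 2 labelled WT (edgeR adjusted p = 0.070) and without replicate 1 or 2 labelled anti-Act1 (edgeR adjusted p = 0.118 and 0.0909). The other subunits of the same complex did not pass the test. Ndc80, Nuf2 and Spc25 had log2 changes of −0.32, −0.28 and −0.35, with standard errors of 0.25 to 0.27. Cenpe, the kinesin that carries chromosomes to the spindle equator, was at 2.12 and 2.16 CPM under the WT label and at 2.09 and 1.08 CPM under the anti-Act1 label, so that replicate 2 labelled anti-Act1 stood apart from the other 3 libraries. The log2 change of Cenpe was −0.42 ± 0.24 and depended on that library. It was −0.98 without replicate 1 labelled anti-Act1 and −0.03 without replicate 2 labelled anti-Act1.

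The 6 genes of spindle motors and microtubule proteins were all fitted below 0, as 51.0% of all genes tested were, with a median of −0.44. Of these 6, 0 passed the threshold by edgeR, which called 20.7% of all genes tested, and 0 by DESeq2 or by limma. An unadjusted p under 0.05 was found for 0 of them. Tpx2, which activates Aurora A and seeds spindle microtubules, was the most abundant of them per length, at 4.69 and 5.05 CPM under the WT label and at 4.44 and 3.81 CPM under the anti-Act1 label. Its groups did not overlap, and the log2 change was −0.24 ± 0.15 (SE, edgeR adjusted p = 0.293). Kif11, the motor that pushes the spindle poles apart, was at 1.08 and 0.962 CPM in the former and at 0.729 and 0.659 CPM in the latter. Hmmr, a spindle protein, had 17 and 21 counts under the WT label and 14 and 5 under the anti-Act1 label. Kif2c, Kif4 and Nusap1 overlapped between the groups, and the first 2 of these had only 4 and 5 counts in replicate 1 labelled anti-Act1.

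Of the genes of the central spindle and cytokinesis, 3 of 7 were called lower and 6 fitted below 0, where the shares over all genes tested were 9.76% and 51.0%. As a sum over the 7 genes, this role had 18.1 and 17.8 CPM under the WT label and 12.2 and 13.0 CPM under the anti-Act1 label, a ratio of 0.702, the lowest of the 7 roles. Kif23 and Racgap1 encode the motor and the GTPase-activating subunit of centralspindlin, the complex that gathers the midzone microtubules and tells the cell where to cleave. Kif23 was at 4.97 and 5.02 CPM under the WT label and at 2.69 and 3.57 CPM under the anti-Act1 label. Racgap1 was at 5.87 and 5.15 CPM in the former and at 3.30 and 4.34 CPM in the latter. In both genes the groups were apart, and replicate 1 labelled anti-Act1 was the lowest library. The log2 change was −0.68 ± 0.16 for Kif23 (SE, edgeR adjusted p = 0.00133) and −0.53 ± 0.15 for Racgap1 (edgeR adjusted p = 0.00926). Without that library the 2 calls were lost, with log2 changes of −0.48 (edgeR adjusted p = 0.0754) and −0.34 (edgeR adjusted p = 0.230), and Racgap1 was also lost without replicate 1 labelled WT (log2 change −0.44, edgeR adjusted p = 0.083).

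Kif20b, a kinesin of late cytokinesis, was at 2.09 and 2.25 CPM under the WT label and at 1.39 and 0.952 CPM under the anti-Act1 label, with a log2 change of −0.88 ± 0.25 (SE, edgeR adjusted p = 0.00716). Its lowest library was replicate 2 labelled anti-Act1, not replicate 1 as for Kif23 and Racgap1. Without that library its adjusted p was 0.133, and without replicate 2 labelled WT it was 0.0622 (edgeR). The partners of centralspindlin did not pass the test. Prc1, which bundles the midzone microtubules, Ect2, which switches on RhoA for the contractile ring, and Anln, a scaffold of that ring, had log2 changes of −0.24, −0.18 and −0.36. Kif20a stood at 0.04 ± 0.50, and 29.3% of its exon bases are shared with Cdc23, a gene at a mean of 25.1 CPM on the opposite strand, while Kif20a itself was at 0.371 CPM.

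Each library ranked differently within its label, gene by gene. Over the 42 members, replicate 2 labelled anti-Act1 was the lowest library for 21 genes and replicate 1 for 17, while replicates 1 and 2 labelled WT were the lowest for 2 each. The median deviation of the members tested from their own mean over libraries was 0.22 and 0.19 (log2) under the WT label and −0.15 and −0.23 under the anti-Act1 label. These library medians spread by 0.0439 within a label.

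Beyond the 42 genes, a list of other mitosis genes had 8 of 64 tested called lower and 3 higher, and a median of −0.16 with 70.3% fitted below 0. The share called, 17.2%, was below the 20.7% of all genes tested, and the share called lower was 12.5% against 9.76%. Of the 72 listed, 8 were not tested. The called genes with the largest falls were Ckap2, a spindle protein, Ncaph, a condensin subunit, and Sgol2a (shugoshin), which guards centromeric cohesion. Ncaph was at 4.86 and 5.89 CPM under the WT label and at 2.95 and 2.47 CPM under the anti-Act1 label, a log2 change of −0.99 ± 0.16 (SE, edgeR adjusted p = 5.48e-06). Ckap2 and Sgol2a had log2 changes of −1.54 ± 0.46 and −0.83 ± 0.29 and lost their calls whichever library was left out. The other called genes that fell included Smc2 (−0.64), Ncapg2 (−0.28) and Smc4 (−0.18), which like Ncaph encode condensin subunits, while Ncapg and Ncapd2, also condensin genes of this list, had log2 changes of 0.01 and −0.28 and were not called. The genes called higher were Iqgap3 (0.27), a scaffold protein, Hmgb2 (0.19), a chromatin protein, and Hjurp (0.18), the chaperone that loads Cenpa. Of these 11 calls, Smc2, Ncaph, Ncapg2 and Iqgap3 held whichever library was left out, and 5 of the 11 were made by DESeq2.

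In the genes of DNA replication and S phase the shift was smaller in the median. Of 64 genes tested, 7 were called lower and 1 higher, and the median was −0.11, with 73.4% fitted below 0. The share called, 12.5%, was below that of all genes tested, and the share called lower, 10.9%, was close to the background of 9.76%. The called genes with the largest falls were Prim1, Mcm5 and Dbf4, with log2 changes of −0.62, −0.55 and −0.36. Prim1 is the catalytic subunit of primase, Mcm5 a subunit of the replicative helicase, and Dbf4 the activator of the kinase that fires origins. Genes that were not called had fitted values down to −1.23, with Pole at −0.81 ± 0.34 (SE). E2f1, a transcription factor that starts S phase, was called higher, at 44.3 and 41.1 CPM under the WT label and 50.2 and 52.3 CPM under the anti-Act1 label (log2 change 0.26 ± 0.06, edgeR adjusted p = 0.00128). It was the 1 call of these 8 that held whichever library was left out. Whether the mitosis genes differed from the replication genes in their change was not tested.

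**Figure D4:**
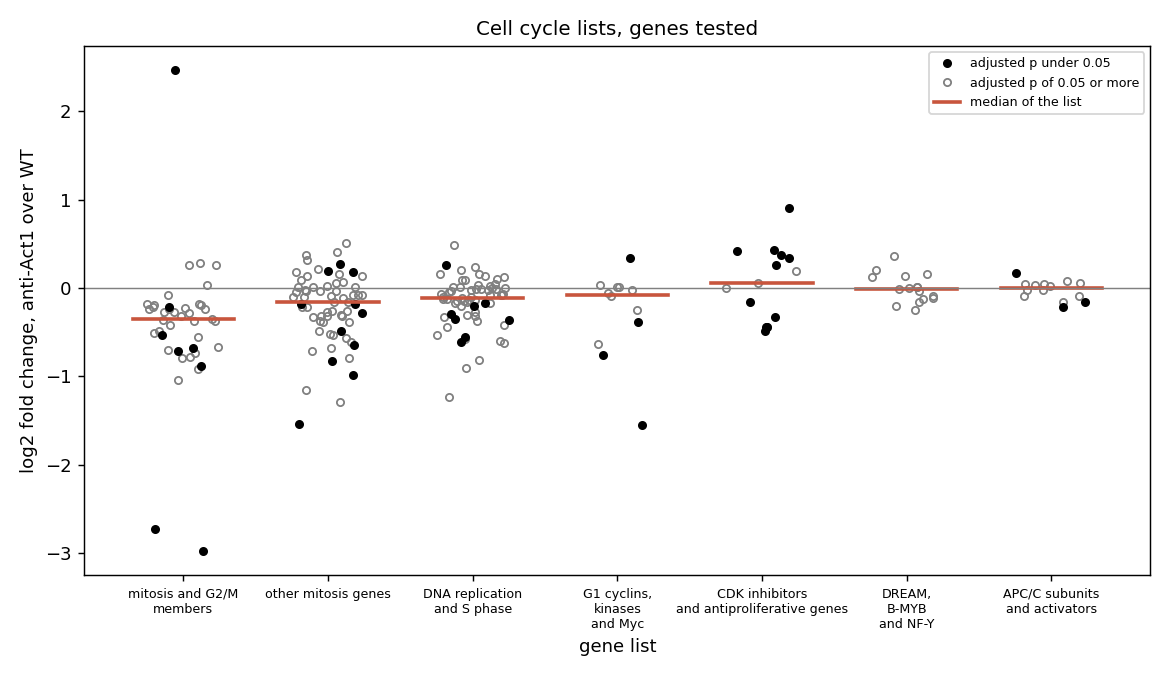
Log2 fold changes, libraries labelled anti-Act1 over those labelled WT, of the genes tested in 7 cell cycle lists. Each point is a gene, filled where the edgeR adjusted p is under 0.05, and each bar is the median of its list. The medians run from −0.35 for the mitosis and G2/M genes over −0.16 for other mitosis genes and −0.11 for DNA replication to 0.06 for CDK inhibitors and antiproliferative genes.

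Among the genes that decide in G1 whether a cell enters the cycle, 3 fell and 1 rose. Ccnd1, the cyclin D1 that growth factors induce in G1, was at 13.1 and 13.5 CPM under the WT label and at 4.13 and 4.93 CPM under the anti-Act1 label. The log2 change was −1.56 ± 0.12 (SE, edgeR adjusted p = 9.11e-15), far outside the spread within either label. Ccnd3, the cyclin D3 that is the most abundant of the family here in CPM, went the other way, at 39.8 and 41.1 CPM under the WT label and 51.8 and 50.6 CPM under the anti-Act1 label (log2 change 0.34 ± 0.06, edgeR adjusted p = 3.09e-05). Ccnd2 was at 1.58 and 1.52 CPM in the former and at 0.923 and 1.08 CPM in the latter and missed the threshold (log2 change −0.63 ± 0.28, edgeR adjusted p = 0.115). Myc, the growth-driving transcription factor, was at 3.67 and 3.76 CPM under the WT label and at 2.36 and 2.01 CPM under the anti-Act1 label, a fall with a log2 change of −0.76 ± 0.18 (edgeR adjusted p = 0.00161). Skp2, which marks the inhibitor p27 for destruction, fell too, with a log2 change of −0.38 ± 0.12 (edgeR adjusted p = 0.015), but its call was lost without replicate 1 labelled WT or without replicate 1 labelled anti-Act1 (edgeR adjusted p = 0.158 and 0.108). The kinases themselves, Cdk2, Cdk4 and Cdk6, had log2 changes of −0.09, 0.03 and −0.02 and were not called. Of the 12 genes of this list 4 were called (33.3%, against 20.7% of all genes tested), and Ccnd1, Ccnd3 and Myc stayed past the threshold whichever library was left out.

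Among CDK inhibitors and antiproliferative genes, 15 of 18 were tested, of which 6 rose and 5 fell, with a median of 0.06. The share called was 73.3%, against 20.7% of all genes tested and 24.1% of those with a mean of at least 10 CPM. Cdkn1a, the p53 target p21, was at 354 and 347 CPM under the WT label and at 469 and 468 CPM under the anti-Act1 label, a log2 change of 0.42 ± 0.05 (SE, edgeR adjusted p = 5.12e-09). Cdkn1c (p57) was at 8.76 and 8.50 CPM in the former and at 16.3 and 16.0 CPM in the latter, a log2 change of 0.90 ± 0.10 (edgeR adjusted p = 3.55e-10). Both inhibitors of the same family thus stood higher in each library labelled anti-Act1. Cdkn1b (p27), the third of the family, overlapped between the groups, with a log2 change of 0.06 ± 0.06. Ccng2, a cyclin of resting cells, Gadd45a and Gadd45b, stress genes that can hold cells at G2/M, and Btg1, an antiproliferative gene, rose with log2 changes of 0.38, 0.43, 0.34 and 0.26. The opposite direction was taken by Btg2 (−0.44), Plk3 (−0.49), Plk2 (−0.32), Ccng1 (−0.16) and Cdkn2c (−0.44), the gene of the Cdk4 inhibitor p18. Cdkn1a and Gadd45a, which rose, and Btg2, Plk2, Plk3 and Ccng1, which fell, are all known targets of p53. Trp53, its gene, was at 43.5 and 41.9 CPM under the WT label and at 40.9 and 44.4 CPM under the anti-Act1 label. The activity of the p53 protein was not measured here, and its part in these changes was not tested. Cdkn1a, Cdkn1c, Ccng2, Btg1, Btg2, Gadd45a, Gadd45b and Plk2 kept their calls whichever library was left out, while the calls of Cdkn2c, Ccng1 and Plk3 were lost in 4, 2 and 2 of these 4 fits.

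**Figure D5:**
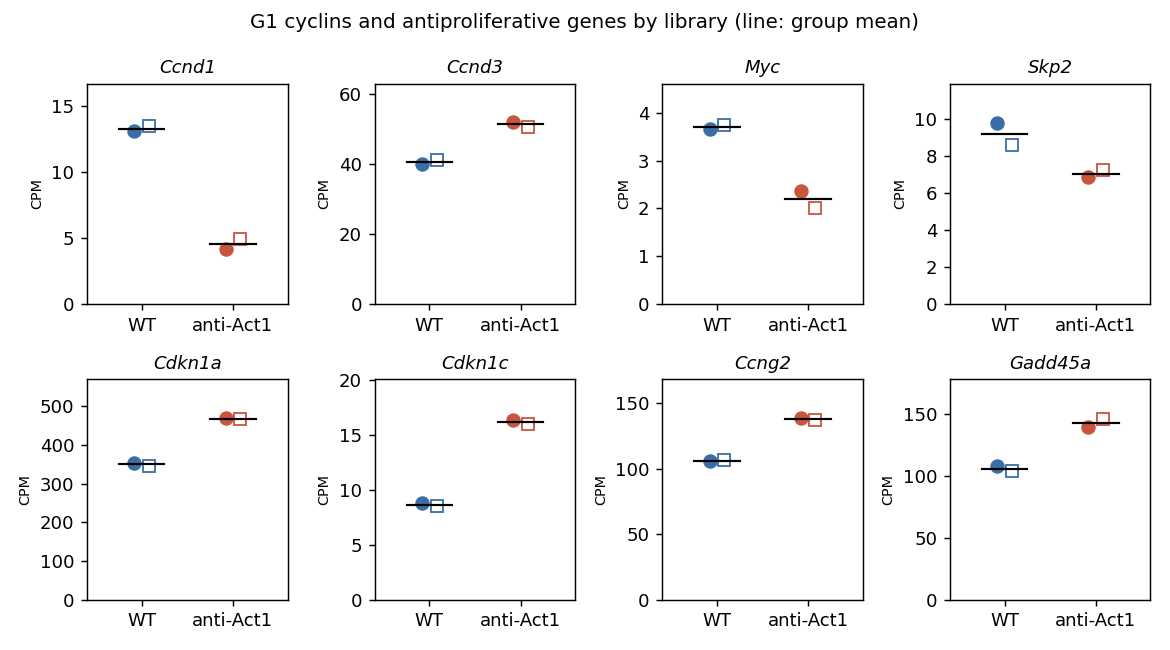
CPM of 4 genes of G1 (top) and 4 antiproliferative genes (bottom) in the 4 libraries, with axes that start at 0. The antiproliferative genes shown are 4 of the 6 called higher in their list, and 5 others of that list were called lower. Filled circles are replicate 1, open squares replicate 2 and lines group means. In all 8 panels both points of one label lie apart from both of the other, lower in the libraries labelled anti-Act1 for Ccnd1, Myc and Skp2 and higher for Ccnd3, Cdkn1a, Cdkn1c, Ccng2 and Gadd45a.

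None of the factors that act on the CHR and CCAAT elements passed edgeR's test with TMM scaling. Of 16 genes of the DREAM complex, B-MYB and the CCAAT-binding factor NF-Y, 0 were called by edgeR and 0 by DESeq2, 1 (Lin37) by limma on filtered FPKM, and 5 had an unadjusted p under 0.05, with a median of −0.0051. Mybl2, the gene of B-MYB and itself a gene of cycling cells, was at 1.16 and 0.738 CPM under the WT label and at 1.23 and 1.19 CPM under the anti-Act1 label. Nfya, the regulatory subunit of NF-Y, was at 138 and 141 CPM in the former and at 125 and 130 CPM in the latter, with a log2 change of −0.13 ± 0.05 (SE, edgeR adjusted p = 0.0820), and was called lower with scaling to library totals only (edgeR adjusted p = 0.0364). Of 14 subunits and activators of the APC/C outside the 42 genes, Cdc27 (−0.21) and Anapc2 (−0.16) were called lower and Ube2s (0.17) higher, with a median of −8e-04. This share of 21.4% was close to the 20.7% of all genes tested, and none of these 3 calls held whichever library was left out.

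Markers of other cells that could carry division genes into the libraries were read in each library. Of 15 markers of epithelial tumor cells, 7, Krt8, Krt18, Krt20, Cldn3, Cldn4, Cdx2 and Esrp1, were at 0 counts in all 4 libraries. The list summed to 2.09 and 1.67 CPM under the WT label and to 1.83 and 1.30 CPM under the anti-Act1 label, with overlap, 11 of the 15 had at most 3 counts in every library, and the most abundant gene was Lgals4 at a mean of 1.04 CPM. Markers of blood progenitors, 6 genes led by Meis1, summed to 2.32 and 2.56 CPM under the WT label and to 1.88 and 1.67 CPM under the anti-Act1 label, without overlap, and 0 of the 3 tested were called (edgeR). Kit, the stem cell factor receptor, was at 0.588 and 0.804 CPM in the former and at 0.502 and 0.293 CPM in the latter. Of 10 markers of neutrophils and their precursors, 7 were tested and 4 called, against 20.7% of all genes tested. S100a9, Ltf and Ngp were lower, with log2 changes of −1.42, −1.58 and −2.21, and S100a8 was higher, at 0.66. The call of Ltf was lost without replicate 2 of either label (edgeR adjusted p = 0.144 for WT and 0.125 for anti-Act1) and that of Ngp without replicate 2 labelled anti-Act1 (edgeR adjusted p = 0.0635), while the sum of the 10 genes overlapped between the groups, at 7.71 and 8.02 CPM against 8.26 and 7.27 CPM. Ngp, a granule protein of maturing neutrophils, was at 0.666 and 0.619 CPM under the WT label and at 0.178 and 0.0916 CPM under the anti-Act1 label. The progenitor sum and the neutrophil genes S100a9, Ltf and Ngp thus lay lower, as most mitosis genes did, while S100a8 lay higher. No progenitor marker was called by itself, and the part of either list in the result was not tested. Of the other blood and stromal lists, T cell markers summed to 26.0 and 25.8 CPM under the WT label and 28.4 and 31.7 CPM under the anti-Act1 label, nearly all of it Cd4, which was called higher (log2 change 0.21) but not without replicate 1 or 2 labelled WT or replicate 2 labelled anti-Act1 (edgeR adjusted p = 0.0584, 0.104 and 0.507), and B cell markers to 2.91 and 3.18 CPM against 3.69 and 4.03 CPM. Fibroblast markers summed to 1.76 and 1.88 CPM in the former and 2.48 and 2.23 CPM in the latter. The sums of dendritic cell, erythroid, and mast cell and basophil markers overlapped between the groups, at 4.13 to 4.94, 0.549 to 0.810 and 0.0324 to 0.311 CPM.

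Of 10 markers of mature macrophages 4 were called, where 24.1% of all genes with a mean of at least 10 CPM were. Mrc1, the mannose receptor, Mertk, a receptor for dying cells, and Itgam were lower, with log2 changes of −0.63, −0.40 and −0.31, Cd14, the co-receptor for lipopolysaccharide, was higher at 0.16, and Cd68, Csf1r, Adgre1, Fcgr1, Lyz2 and Spi1 were not called. The call of Cd14 was lost without replicate 2 labelled WT, without replicate 1 labelled anti-Act1 and with a replicate block (edgeR adjusted p = 0.0896, 0.0749 and 0.0568). Csf1r, the receptor through which M-CSF drives the division and survival of these cells, was at 2398 and 2442 CPM under the WT label and at 2251 and 2346 CPM under the anti-Act1 label. Its log2 change was −0.07 ± 0.05 (SE, edgeR adjusted p = 0.317).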

How the data were processed

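RNA of BMDMs cocultured with MC38 cells was sequenced on a NovaSeq instrument, with 2 libraries under each label. Per the study's methods, the authors cleaned the reads (adapters, poly-N and poor quality taken out), aligned them with TopHat and deposited a count of reads per gene. The submitters' processing notes name Bowtie 0.12.2, HTSeq 0.6.1 and the builds mm8 and mm10 without their role, so that no coordinate was taken from the files. The FPKM values the authors deposited equal these counts divided by a constant per gene and by the library total, and the gene length behind them is not given in the sources used here. Whether counting used strand is not given in the sources used here, and 13 of the 42 genes share exon bases with another gene in GENCODE M21.

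The 42 genes, the other lists and the tests were chosen with earlier results of these data known. Counts were tested with edgeR 4.0.16 in R 4.3.3 (TMM, default filter on low counts, quasi-likelihood F test, two-sided, adjusted p under 0.05 called, Benjamini-Hochberg over 12494 genes). Ratios of genes with few counts have exact binomial 95% intervals. An exact permutation test of 2 against 2 libraries cannot go below p = 0.333 and was not used. The text could name all 42 genes. It gives values in every library for Mki67, Top2a, Foxm1, Cdk1, Ccna2, Ccnb1, Ccnb2, Plk1, Aurka, Aurkb, the called members and, in each role, the members with the highest FPKM and the largest log2 change. From other lists it names up to 3 called genes per direction with the largest change, and more of the G1, CDK inhibitor, DREAM and marker lists. Kif11, Ndc80, Cenpe, Bub1, Birc5, Smc2, Smc4, Ncapg2 and others beyond that were added after their values were seen. Alternatives were DESeq2 (version 1.42.0 here; the study used an earlier version), its size factors, library totals, other filters, a replicate block, limma 3.58.1 on log2(FPKM + 1) or log2(FPKM + 0.1), and leaving out each library. Counts divided by 2 were added after the data were seen, since low counts were mostly even. Promoters were RefSeq's (GRCm38.p6, 250 bases before to 50 after the start).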

Additional observations from a re-analysis of the deposited data

How the results depend on the processing

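Over the 14 alternatives, 13 of them planned, the median log2 change of the members stayed below 0, and the number of members called, 8 in the edgeR fit, changed. DESeq2 called 1986 of 11968 genes tested and 2 of 34 members tested (Top2a and Kif23). It also called 5 other mitosis genes and 4 replication genes. A filter of at least 1 FPKM in 2 libraries left 11 members and 10168 genes for limma. It called 3 members and 6 other mitosis genes with either pseudocount. On log2(FPKM + 1) it called 1970 genes and the members' median was −0.17. On log2(FPKM + 0.1) it called 1961 genes and the median was −0.25. Without that filter limma called 1091 genes, 6 members (Top2a, Spc24 and Cdc25c, and besides them Ccnb2, Foxm1 and Cdc20), 6 other mitosis genes and 0 replication genes, and the median was −0.12. The median was −0.27 with at least 10 counts in every library, and −0.29 with counts divided by 2. In the latter fit 6 of 34 members and 2646 of 11879 genes were called. With a library left out, 1671 to 2543 genes, 3 to 6 members, 5 to 9 other mitosis genes and 4 to 6 replication genes were called, and the members' median was −0.37 to −0.26. Each of the 4 libraries decided calls of members: the count was 6 without replicate 1 labelled WT, 3 without replicate 2 labelled WT, 3 without replicate 1 labelled anti-Act1 and 4 without replicate 2 labelled anti-Act1. The lone library of a label was then assumed to vary like the other pair. Pairing the libraries by replicate number as a block gave 7 called members (Cdc25c was lost, edgeR adjusted p = 0.0749), 2406 genes, 9 other mitosis and 8 replication genes and a median of −0.36; same-numbered libraries did not deviate together (correlation −0.03), so that they share only a number. No called gene that the text names changed sign under these alternatives, whereas the log2 change of the uncalled members Ccnb1, Plk1, Aurka, Cdca8, Nusap1, Kif20a, Kif2c and Kif4 did under 1 to 3 of them. Why calls were lost was not tested beyond the fewer libraries or genes that an alternative leaves. Depth limits the 17 members tested below 1 CPM most.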
